A study of Mus musculus with 41 samples.

Results

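Stem cells from the anterior segment of the adult mouse small intestine were set against stem cells from its more distal segments. The members are 6 RNA-seq libraries of the 41 in the series, chosen by their titles: 2 labelled adult wild-type anterior, 2 labelled wild-type middle and 2 labelled wild-type posterior. The middle and posterior libraries together are called distal below. Each library was made from 250 Lgr5-EGFPhigh cells sorted by flow cytometry at postnatal day 60 from mice of mixed C57BL/6 CD1 background. The EGFP is a reporter of Lgr5, so every library holds cells chosen for high expression of that gene, and the labels name neither the reporter allele nor the animals. Another 6 adult libraries, labelled anterior, middle and posterior Id2KO (n = 2 each), carry a label for loss of Id2 and were used for the same contrast. The labels give neither the allele nor the cells in which Id2 was lost, and a pair of Tomato+ posterior Id2KO libraries entered the fit only to share in the estimate of spread.

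Lgr5 is the R-spondin receptor that marks stem cells at the base of intestinal crypts. The small intestine is patterned along its length: Gata4 and Pdx1 are transcription factors of its proximal part, whereas bile acid uptake and the contact with dense microbiota belong to the ileum at its distal end. Crypts keep this regional identity when grown outside the body, so regional differences are commonly sought in the stem cells themselves.

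The 6 libraries held 13596192 to 16312161 gene counts each and 13407 to 13833 detected genes. Values below are CPM (the counts of each library brought to a common total) after scaling by the trimmed mean of M values, and log2 fold changes are anterior over distal with their standard errors, so a negative value means a lower level in anterior cells. The stem cell gene Olfm4, a secreted glycoprotein of crypt base cells, was at 8780 and 11500 CPM in anterior and 10200 to 15600 CPM in distal libraries. Lgr5 itself was at 252 and 429 CPM in anterior, 290 and 331 CPM in middle and 327 and 320 CPM in posterior libraries and did not differ beyond the spread (0.10 ± 0.24, adjusted p = 0.84). Id2, which binds basic helix-loop-helix factors and keeps them off DNA, was at 102 and 65.6 CPM in anterior and 76.0 to 126 CPM in distal libraries (-0.19 ± 0.17, adjusted p = 0.52). The fitted sign of both genes turned without anterior replicate 2, to -0.34 for Lgr5 and 0.09 for Id2, and without anterior replicate 1 Id2 passed as lower in anterior cells (-0.59, adjusted p = 0.04). Lgr5, the gene whose reporter defined the sort, and the stem cell gene Olfm4 were thus present in all 6 libraries. Markers of endothelium, red cells and stomach surface cells (Tff1, Gkn1 and Muc5ac) were at 0 in all 6 libraries.

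Of 13436 genes tested, 762 were higher and 440 lower in anterior than in distal cells by edgeR's quasi-likelihood test with Benjamini-Hochberg adjustment, 8.95% in all (5.67% higher and 3.27% lower). The median size of the change was 0.84 on the log2 scale among the genes that rose and 0.69 among those that fell, and the median over all tested genes was near 0. A change of more than 2 on the log2 scale was seen for 71 of the lower and 47 of the higher genes. The 2 anterior libraries lay outside the range of the 4 distal libraries for 715 of the higher and 425 of the lower genes, and for 27.8% of all genes tested.

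That count rested largely on 1 library. Without anterior replicate 2 the test called 55 genes higher and 80 lower, among them 50 of the 762 and 71 of the 440. The numbers were 447 and 280 without middle replicate 2, 467 and 266 without posterior replicate 2, 525 and 300 without middle replicate 1, 587 and 325 without posterior replicate 1, and 988 and 730 without anterior replicate 1. A smaller set was called with all libraries and again without each of the 6 in turn: 42 genes higher (0.313% of the genes tested) and 67 lower (0.499%) in anterior cells, 0.811% in all. In a fit of the 6 wild-type libraries alone, with the segments kept apart, 289 genes were called higher and 200 lower. The 4 distal libraries were then fitted as 1 group, also without the Id2KO libraries, so that any difference between middle and posterior counted as spread. That fit called 23 genes higher and 26 lower, of which 11 higher and 18 lower genes belonged to the set of 109 called without each library. In that fit Nos2, Nox1, Cyba, Noxo1, Osr2, H2-Eb1, Cd14, Casp4, Phlda1, Pkm and Fads1 were among the genes still called. The calls of Gata4 (adjusted p = 0.45), Gkn3 (0.67), Bex1 (0.22), Adh1 (0.23) and Ceacam10 (0.092) were lost. The genes named below belong to the 109 unless a lost call is given. The labels do not say whether replicates came from separate animals. The p-values thus measure a spread between libraries, estimated over the 14 adult segment libraries of the fit, Id2KO ones included. Each fit with 1 library left out has a single library in that segment, so its spread is taken from the other groups.

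**Figure D1:**
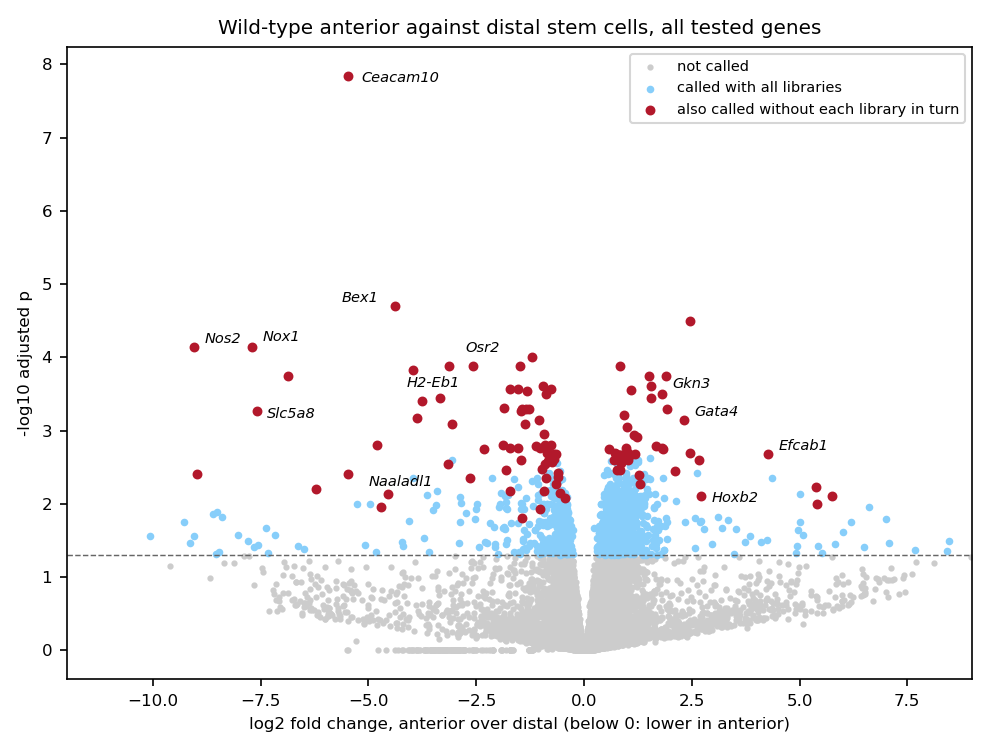
Each point is 1 of the 13436 tested genes, with the log2 fold change of anterior over distal wild-type cells on the x axis and -log10 of the adjusted p on the y axis. Red points are the 109 genes called with all 6 libraries and without each in turn, blue points the other called genes, and the dashed line marks an adjusted p of 0.05. Ceacam10, Bex1, Nos2 and Nox1 stand out on the side lower in anterior cells, and Gkn3 and Gata4 on the other.

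Gata4, a zinc finger factor of proximal intestinal identity, was higher in anterior cells. It was at 156 and 226 CPM in anterior, 22.1 and 7.73 CPM in middle and 96.0 and 99.6 CPM in posterior libraries (2.32 ± 0.28, adjusted p = 0.00071). Both anterior values lay above all 4 distal values, and the lowest values were in the middle libraries. Hnf4a, a nuclear receptor of the intestinal epithelium, was at 407 and 571 CPM in anterior and 257 to 311 CPM in distal libraries (0.84 ± 0.12, adjusted p = 0.0021). Hoxb2, a Hox gene from the start of its cluster, was at 11.8 and 9.01 CPM in anterior and 0.372 to 3.05 CPM in distal libraries (2.72 ± 0.50, adjusted p = 0.0077). Of 12 tested Hox genes, Hoxb2 was higher, Hoxa3 was lower (-7.39) and 10 did not pass, with a median of -3.64. Both calls were lost in a fit of the wild-type libraries alone.

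Pdx1, a homeobox factor of pancreas and duodenum, was at 12.9 and 17.1 CPM in anterior libraries and at 0.957, 0, 0.818 and 0.0683 CPM in distal ones, with no overlap (5.01 ± 1.07, adjusted p = 0.018). Without anterior replicate 2 its adjusted p was 0.17, and without posterior replicate 2 it was 0.062. Onecut2, a homeobox factor of proximal endoderm, was at 74.5 and 64.8 CPM in anterior, 5.30 and 1.04 CPM in middle and 51.5 and 35.3 CPM in posterior libraries (2.57 ± 0.65, adjusted p = 0.04), a call lost when any library other than middle replicate 1 was left out (adjusted p = 0.088 to 0.24). Of the 19 tested genes in a list of proximal small intestine genes, these 3 (Gata4, Onecut2 and Pdx1) were higher, 0 were lower and 16 did not pass, with a median of 0.23.

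Oxct1, the enzyme that starts the use of ketone bodies, was lower in anterior cells, at 200 and 223 CPM in anterior and 257 to 368 CPM in distal libraries (-0.60 ± 0.10, adjusted p = 0.0038). Of 16 tested genes of fatty acid breakdown 4 were higher, 0 were lower and 12 did not pass (median 0.24). Among the 4, Cpt1a, Acadvl and Hadha act on the entry and breakdown of long-chain fatty acids, and none of them passed without anterior replicate 2 (adjusted p = 0.35, 0.18 and 0.14). Cpt1a also missed the threshold without middle replicate 1 or posterior replicate 1 (adjusted p = 0.053 and 0.051).

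Adh1, an alcohol dehydrogenase that also oxidises retinol, was at 853 and 694 CPM in anterior, 144 and 95 CPM in middle and 300 and 399 CPM in posterior libraries (1.92 ± 0.21, adjusted p = 0.00051). It was the only one of 19 tested retinoid metabolism genes to pass in this contrast (18 did not pass). Ces2g, a carboxylesterase, was higher in anterior cells (1.90 ± 0.19, adjusted p = 0.00018). It was at 101 and 114 CPM in anterior, 14.7 and 14.2 CPM in middle and 70.6 and 43.7 CPM in posterior libraries. Nags makes the N-acetylglutamate that switches on the first step of the urea cycle and of citrulline synthesis. It was at 90.1 and 98.8 CPM in anterior and 40.5 to 47.8 CPM in distal libraries, so that all 4 distal libraries were close together (1.10 ± 0.12, adjusted p = 0.00028).

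Pkm, the last enzyme of glycolysis, was at 492 and 490 CPM in anterior and 224 to 272 CPM in distal libraries, with little difference between middle and posterior (0.99 ± 0.12, adjusted p = 0.00089). Galk1, which brings galactose into metabolism, was at 139 and 157 CPM in anterior, 70.6 and 69.5 CPM in middle and 121 and 117 CPM in posterior libraries (0.70 ± 0.10, adjusted p = 0.0025). Dlat, a subunit of the pyruvate dehydrogenase complex, was at 260 and 268 CPM in anterior and 152 to 208 CPM in distal libraries (0.58 ± 0.08, adjusted p = 0.0018). Slc19a2, a thiamine carrier, was higher in anterior cells (1.02 ± 0.14, adjusted p = 0.002). It was at 92.2 and 120 CPM in anterior, 41.3 and 31.0 CPM in middle and 74.2 and 77.1 CPM in posterior libraries. Fads1, a fatty acid desaturase, was at 255 and 331 CPM in anterior and 124 to 164 CPM in distal libraries (1.06 ± 0.15, adjusted p = 0.0021).

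A pair of genes best known from the stomach, Gkn3 and Pgc, belonged to the higher set. Of 6 tested foregut and stomach genes these 2 were higher, 1 was lower and 3 did not pass, with a median of -1.22. Gkn3, a gastrokine, was at 82.4 and 60.7 CPM in anterior, 6.06 and 7.15 CPM in middle and 72.5 and 52.1 CPM in posterior libraries (1.82 ± 0.20, adjusted p = 0.00032), so anterior and posterior overlapped and the middle libraries were low. Pgc, a pepsinogen, had a change of 2.1 ± 0.33 (adjusted p = 0.0035). It was at 13.3 and 14.7 CPM in anterior, 1.85 and 0.909 CPM in middle and 8.85 and 6.56 CPM in posterior libraries. Hspa1b, an inducible heat shock protein gene, was higher in anterior cells (1.56 ± 0.16, adjusted p = 0.00025). It was at 72.2 and 84.2 CPM in anterior, 16.7 and 21.9 CPM in middle and 41.3 and 31.8 CPM in posterior libraries. It has a near-identical neighbour, Hspa1a (adjusted p = 0.14 without anterior replicate 2), and reads shared by both may have been split between them or left out. Of 21 tested stress and immediate early genes, 8 were higher, 2 were lower and 11 did not pass (median 0.45), and without anterior replicate 2 the test called 3 higher and 0 lower.

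On the distal side, Osr2, a zinc finger transcription factor, was at 42.5 and 63.9 CPM in anterior, 445 and 418 CPM in middle and 227 and 232 CPM in posterior libraries (-2.56 ± 0.23, adjusted p = 0.00013). The segments were separate, and the middle libraries were the highest. Its call also held with the distal libraries fitted as 1 group (adjusted p = 0.041). In a list of distal small intestine genes, 4 of 17 tested were lower in anterior cells, 0 were higher and 13 did not pass, with a median of -1.79. The other 3 were Bex1, Bex4 and the brush border protease Mep1b (-3.71). The call of Mep1b was lost without any library other than posterior replicate 1 (adjusted p = 0.059 to 0.3), and it is not among the 109.

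Bex1 and Bex4 belong to the BEX and TCEAL family, small X-linked adaptor proteins named for brain expression and for likeness to elongation factors. The family was put together after its values were seen, so it carries no test of its own. Of its 12 genes in the files, 7 passed the filter on low counts, and 5 of these were lower in anterior cells: Bex1, Bex4, Tceal8, Wbp5 and Ngfrap1. Bex1 was at 1.70 and 1.01 CPM in anterior, 108 and 90.0 CPM in middle and 6.39 and 9.77 CPM in posterior libraries (-4.38 ± 0.30, adjusted p = 2e-05). Bex4 was at 0.121 and 0 CPM in anterior, 27.1 and 24.7 CPM in middle and 2.38 and 2.53 CPM in posterior libraries (-6.86 ± 0.67, adjusted p = 0.00018). The anterior libraries held 2 reads of Bex4 between them, and the ratio of distal to anterior counts was 239 (95% exact binomial interval 66 to 1980, for counting error only). Tceal8 was at 5.34 and 3.53 CPM in anterior and 32.0 to 110 CPM in distal libraries (-3.76 ± 0.42, adjusted p = 0.0004). Wbp5, the file's symbol for Tceal9, and Ngfrap1, for Bex3, were more even, at -1.21 ± 0.10 and -1.01 ± 0.14. Bex2 and Tceal1 did not pass.

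Several transport, barrier and surface genes followed the same order. Slc5a8, a sodium-coupled carrier of short-chain fatty acids and lactate, was at 0 and 0.126 CPM in anterior, 43.3 and 46.2 CPM in middle and 1.86 and 6.01 CPM in posterior libraries (-7.59 ± 0.89, adjusted p = 0.00055). Its 2 anterior reads gave a ratio of 411 (interval 114 to 3400). Naaladl1, an ileal peptidase, was at 12.4 and 21.9 CPM in anterior, 534 and 477 CPM in middle and 42.2 and 49.9 CPM in posterior libraries (-3.16 ± 0.42, adjusted p = 0.0028). Cd177, a surface glycoprotein best known from neutrophils, was at 5.09 and 4.79 CPM in anterior, 186 and 326 CPM in middle and 26.8 and 20.0 CPM in posterior libraries (-3.97 ± 0.37, adjusted p = 0.00015). For each of these genes the groups did not overlap and the middle libraries were far above the posterior ones.

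Of 18 tested brush border enzymes, 1 was higher, 2 were lower and 15 did not pass (median -0.09). Mgam, maltase-glucoamylase, was the one called without each library, at 82.3 and 103 CPM in anterior and 152 to 366 CPM in distal libraries (-1.35 ± 0.16, adjusted p = 0.00051). Mgam was at 366 and 365 CPM in middle and 152 and 153 CPM in posterior libraries. Abcb1a, the drug efflux pump P-glycoprotein, was also lower in anterior cells (-1.46 ± 0.22, adjusted p = 0.0025). It was at 22.3 and 40.6 CPM in anterior, 166 and 183 CPM in middle and 38.8 and 46.8 CPM in posterior libraries. Its anterior and posterior values overlapped. Among 35 tested drug and xenobiotic metabolism genes, 1 rose, 7 fell and 27 did not pass (median -0.20), and without anterior replicate 2 the test called 0 and 2. Cldn8, a sealing claudin of the distal gut, was lower in anterior cells (-1.87 ± 0.21, adjusted p = 0.00049). It was at 11.5 and 15.4 CPM in anterior, 93.6 and 83.5 CPM in middle and 25.3 and 28.9 CPM in posterior libraries. Gpx2, the glutathione peroxidase of gut epithelium, was lower as well (-0.74 ± 0.11, adjusted p = 0.0021). It was at 390 and 302 CPM in anterior, 715 and 671 CPM in middle and 500 and 459 CPM in posterior libraries.

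The subunits of the epithelial NADPH oxidase were lower in anterior cells. Nox1, its catalytic subunit, which makes superoxide at the surface of gut epithelium, was at 0.0606 and 0.063 CPM in anterior, 29.1 and 25.3 CPM in middle and 10.7 and 4.58 CPM in posterior libraries (-7.70 ± 0.63, adjusted p = 7.3e-05). The anterior libraries held 2 reads between them, and the ratio of distal to anterior counts was 289 (interval 79.9 to 2390). Cyba, the membrane partner p22phox, was at 62.5 and 51.4 CPM in anterior, 180 and 144 CPM in middle and 165 and 143 CPM in posterior libraries (-1.47 ± 0.14, adjusted p = 0.00013). Noxa1, the activator subunit, was at 58.8 and 38.4 CPM in anterior and 93.1 to 170 CPM in distal libraries (-1.44 ± 0.16, adjusted p = 0.00051). Noxo1, the organiser subunit, was at 114 and 110 CPM in anterior and 191 to 257 CPM in distal libraries (-0.94 ± 0.10, adjusted p = 0.00025).

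For all 4 subunits both anterior values lay below all distal values. Rac1, the small GTPase that the enzyme also needs and that serves many other processes, was at 634 and 596 CPM in anterior and 540 to 652 CPM in distal libraries (0.01, adjusted p = 0.97). These oxidase genes were grouped after their values were seen. Of 15 such genes in the files, 9 were tested, 5 were lower and 4 did not pass. The fifth lower gene was Duoxa2, the maturation factor of the dual oxidase Duox2, at 0.667 and 1.32 CPM in anterior, 20.4 and 24.7 CPM in middle and 3.57 and 2.66 CPM in posterior libraries (-3.07 ± 0.38, adjusted p = 0.00081). Duox2 was at 1.39 and 1.39 CPM in anterior and 2.23 to 9.13 CPM in distal libraries and did not pass (-1.72 ± 0.56, adjusted p = 0.074).

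Genes of microbe-induced mucosal defence, the list that holds Duoxa2, included 1 that was higher, 4 that were lower and 18 that did not pass among 23 tested, with a median of -1.72. Without anterior replicate 2 the test called 0 and 3. Nos2, inducible nitric oxide synthase, was at 0 and 0.063 CPM in anterior, 42.9 and 39.2 CPM in middle and 8.70 and 11.1 CPM in posterior libraries (-9.04 ± 0.75, adjusted p = 7.3e-05). A single anterior read set its ratio of 851, with an interval of 152 to 33600. Ceacam10, a secreted member of the carcinoembryonic antigen family, had the smallest adjusted p of the contrast. It was at 3.58 and 3.15 CPM in anterior, 283 and 306 CPM in middle and 65.3 and 84.7 CPM in posterior libraries (-5.46 ± 0.20, adjusted p = 1.4e-08). Outside that list, Cd14, the co-receptor for lipopolysaccharide, was at 53.8 and 48.0 CPM in anterior and 108 to 179 CPM in distal libraries (-1.53 ± 0.16, adjusted p = 0.00027). Casp4, the caspase that senses lipopolysaccharide in the cytosol, was at 14.8 and 17.4 CPM in anterior and 38.5 to 51.9 CPM in distal libraries (-1.52 ± 0.21, adjusted p = 0.0017). Cd14 is also a monocyte marker. The whole macrophage and dendritic cell list of 20 genes, Cd14 included, summed to 64.8 and 51.5 CPM in anterior, 183 and 194 CPM in middle and 142 and 111 CPM in posterior libraries. Of its 8 tested genes 0 were higher, 1 (Cd14) was lower and 7 did not pass. Cd14 made up most of each sum, 9 of the 20 genes were at 0 in all 6 libraries, among them Csf1r, Itgax and C1qb, and the part of such cells in the result was not tested.

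The secreted lectins Reg3g and Reg3b of the same list did not pass. Reg3g was at 18.8 and 32.1 CPM in anterior, 772 and 336 CPM in middle and 47.4 and 35.9 CPM in posterior libraries (-2.58 ± 0.84, adjusted p = 0.10). Paneth cells, which lie between the stem cells and make antimicrobial peptides, gave uneven signals: the summed level of Lyz1, Defa24, Mmp7 and Ang4 was 145 and 28.0 CPM in anterior, 1110 and 668 CPM in middle and 112 and 1480 CPM in posterior libraries. Of 20 tested Paneth cell genes 4 were lower and 16 did not pass (median -3.20), and without anterior replicate 2 the test called 0. The 4 included 3 defensin genes (Defa20, Defa21 and Defa22), near-identical copies whose reads cannot be assigned with certainty. The part of Paneth cell RNA in the middle libraries, and so in the values of the defence genes there, was not tested. Nox1, Nos2 and Ceacam10 were highest in the middle libraries, where the Paneth sum was 1110 and 668 CPM. In the posterior libraries, with sums of 112 and 1480 CPM, they were lower than in middle and above the anterior values. In bulk libraries fewer cells of a type and less RNA per cell cannot be told apart.

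**Figure D2:**
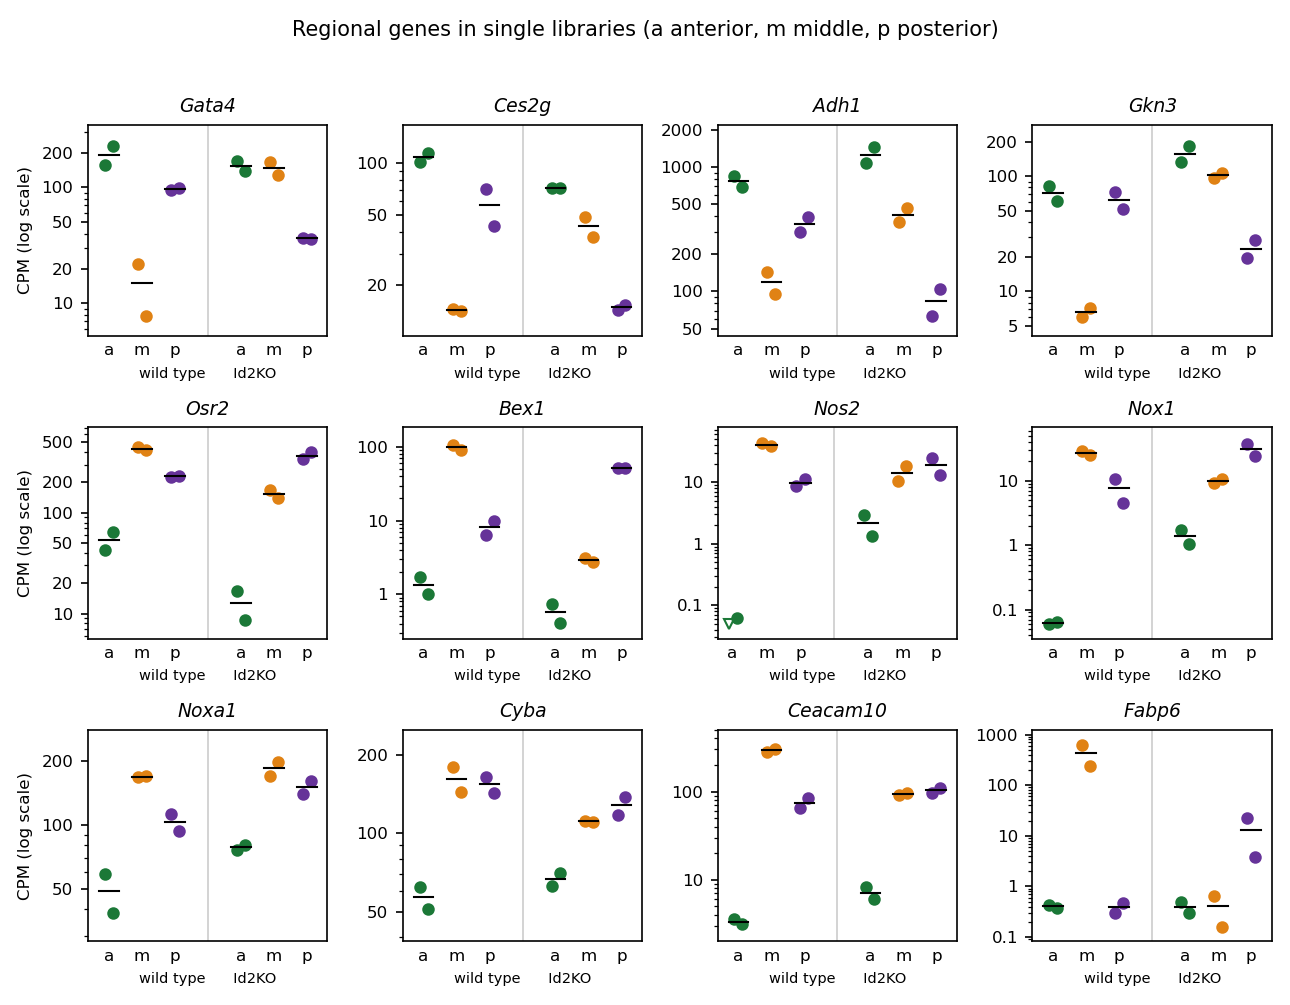
Points are single libraries and bars the mean of 2, in CPM on a log scale, for 12 genes in anterior (a), middle (m) and posterior (p) segments of wild-type and Id2KO adults. An open triangle at 0.05 CPM stands for a value of 0. Among the wild-type libraries, Gata4, Ces2g, Adh1 and Gkn3 were lowest in the middle ones, whereas Osr2, Bex1, Nos2, Nox1, Ceacam10 and Fabp6 were highest there.

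Several genes of MHC class II were lower in anterior cells. Class II molecules show peptides to CD4+ T cells. They are assembled from alpha and beta chains with the invariant chain Cd74, loaded with the help of H2-DM, and switched on by the transactivator Ciita acting through the RFX factors and NF-Y at conserved X and Y boxes. The promoters of 3 class II genes are shown, with matches to a pattern for each of these boxes marked. Each runs from 250 bases before to 50 bases after the RefSeq start of the gene (GRCm38.p6), 5′ to 3′ on the strand of the gene, at chr17:34305617-34305916 (+) for H2-Eb1, chr17:34152941-34153240 (+) for H2-DMb1 and chr17:34287774-34288073 (-) for H2-Aa. Capitals mark matches to GNNACNGAT, taken from the core of the X box, and to TGATTGG, a Y box with the inverted CCAAT.
H2-Eb1: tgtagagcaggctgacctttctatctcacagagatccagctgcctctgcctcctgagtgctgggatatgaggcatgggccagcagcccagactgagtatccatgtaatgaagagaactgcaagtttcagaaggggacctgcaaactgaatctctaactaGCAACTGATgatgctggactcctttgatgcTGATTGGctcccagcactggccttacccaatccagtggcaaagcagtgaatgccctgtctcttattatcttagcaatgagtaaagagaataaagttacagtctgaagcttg
H2-DMb1: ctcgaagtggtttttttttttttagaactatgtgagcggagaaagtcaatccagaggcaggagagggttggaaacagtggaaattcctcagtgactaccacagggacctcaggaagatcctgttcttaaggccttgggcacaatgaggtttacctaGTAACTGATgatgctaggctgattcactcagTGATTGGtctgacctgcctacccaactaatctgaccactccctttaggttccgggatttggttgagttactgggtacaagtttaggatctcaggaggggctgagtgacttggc
H2-Aa: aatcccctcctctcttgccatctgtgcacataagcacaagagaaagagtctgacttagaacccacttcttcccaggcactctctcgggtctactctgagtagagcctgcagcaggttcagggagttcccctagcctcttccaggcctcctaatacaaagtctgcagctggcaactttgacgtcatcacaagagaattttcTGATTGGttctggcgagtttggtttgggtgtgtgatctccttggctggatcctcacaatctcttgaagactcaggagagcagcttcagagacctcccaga
Both strands were searched, and the patterns do not overlap in these promoters. The X box pattern matched in the promoters of H2-Eb1 and H2-DMb1, starting 91 and 94 bases before the start of the gene. It had no match in that of H2-Aa, which does not show that this promoter lacks an X box. The X box pattern was in 5 of 11 class II list genes with a RefSeq promoter and in 7.82% of 32851 promoters of that length. Besides H2-Eb1 and H2-DMb1, the 5 were H2-Eb2, H2-Oa and H2-Ob, whose counts were too low to be tested. The Y box began 61, 63 and 50 bases before the start in H2-Eb1, H2-DMb1 and H2-Aa, and was in 8 of the 11 and in 7.82% of all promoters. Both patterns come from boxes known in class II promoters, so these shares carry no test. They count genes for class II and single promoters for the whole. A match describes the letters and not binding.

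H2-Eb1, the beta chain of I-E, was at 14.9 and 12.2 CPM in anterior, 108 and 92 CPM in middle and 172 and 114 CPM in posterior libraries (-3.14 ± 0.29, adjusted p = 0.00013). The anterior values lay far below the distal ones, and middle and posterior did not differ beyond their spread (0.52 ± 0.28, adjusted p = 0.48). H2-DMa, a chain of the peptide loading factor, was at 42.7 and 29.3 CPM in anterior and 97.3 to 151 CPM in distal libraries (-1.73 ± 0.24, adjusted p = 0.0017). Ctss, cathepsin S, which trims the invariant chain, was at 53.5 and 47.9 CPM in anterior and 84.8 to 107 CPM in distal libraries (-0.89 ± 0.14, adjusted p = 0.0029).

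The other 4 called class II genes passed with every library left out except anterior replicate 2. Cd74 was at 182 and 189 CPM in anterior, 1770 and 1840 CPM in middle and 2320 and 2040 CPM in posterior libraries (-3.42 ± 0.49, adjusted p = 0.0068), and at an adjusted p of 0.11 without that library. H2-Aa was at 17.1 and 13 CPM in anterior and 208 to 312 CPM in distal libraries (-3.96 ± 0.58, adjusted p = 0.0045, and 0.11 without it). H2-Ab1 was at 66.8 and 62.4 CPM in anterior and 440 to 753 CPM in distal libraries (-3.05 ± 0.39, adjusted p = 0.0025, and 0.08 without it). For H2-DMb1 the levels were 11.5 and 8.31 CPM in anterior and 35.6 to 50.3 CPM in distal libraries (-2.13 ± 0.35, adjusted p = 0.0045, and 0.083 without it). Leaving out that library hardly moved the fitted changes, which stayed between -4.21 and -1.92 over these 4 genes and all 6 libraries left out.

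In all, 7 of 12 tested class II genes were lower, 0 were higher and 5 did not pass, with a median of -1.72, and 3 further list genes (H2-Eb2, H2-Oa and H2-Ob) were at 0.41 CPM or less in every wild-type library and failed the filter. With the distal libraries fitted as 1 group 6 were called lower. Ciita was at 3.34 and 0.756 CPM in anterior and 3.45 to 9.22 CPM in distal libraries and did not pass (-1.72 ± 1.07, adjusted p = 0.34). The factors Rfx5 (0.48, adjusted p = 0.45), Rfxap (-0.21, adjusted p = 0.33) and Rfxank (0.08, adjusted p = 0.87) did not pass either. The summed class II list was 498 and 470 CPM in anterior, 2910 and 2910 CPM in middle and 4000 and 3300 CPM in posterior libraries. Class II genes are also defining genes of dendritic cells, B cells and macrophages. The macrophage and dendritic cell sums are given above. The B and plasma cell list summed to 2.73 and 2.58 CPM in anterior, 5.74 and 3.31 CPM in middle and 1.64 and 13.9 CPM in posterior libraries, and 0 of its 4 tested genes passed. Its member Ms4a1 was at 0.485 and 0.567 CPM in anterior and 0.52 to 2.39 CPM in distal libraries. The T cell and intraepithelial lymphocyte list summed to 117 and 10.3 CPM in anterior, 6.26 and 48.3 CPM in middle and 7.73 and 13.9 CPM in posterior libraries, with Cd4 at 0 in all 6. The part of these cells in the class II values was not tested.

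**Figure D3:**
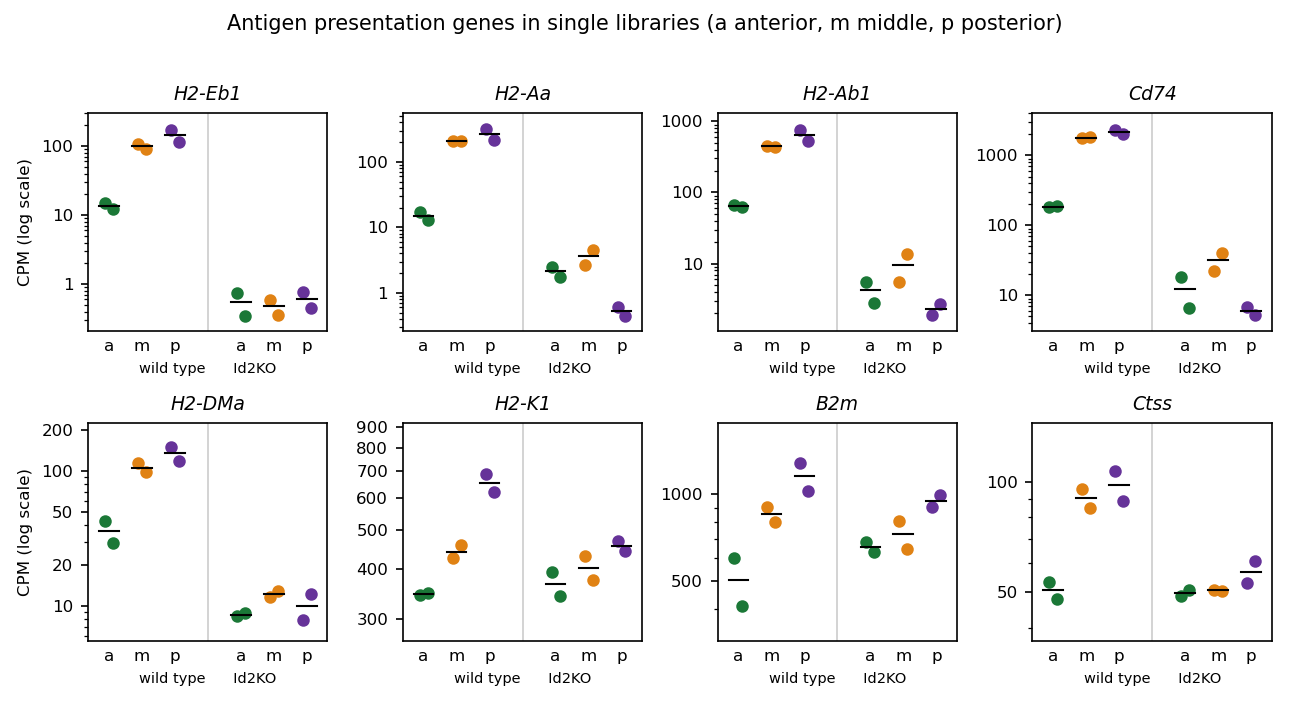
Points are single libraries and bars the mean of 2, in CPM on a log scale, for 6 genes of the class II list and 2 class I genes, by segment (a anterior, m middle, p posterior) and genotype label. The wild-type anterior values of the class II genes lie below all wild-type distal values, and H2-Eb1 was between 0.351 and 0.757 CPM in all 6 Id2KO libraries.

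Class I molecules present peptides to CD8+ T cells in most cells of the body. Of 18 tested class I genes 5 were lower, 0 were higher and 13 did not pass (median -0.27). B2m, the light chain shared by class I molecules, was at 602 and 409 CPM in anterior, 902 and 804 CPM in middle and 1290 and 1030 CPM in posterior libraries (-0.98 ± 0.15, adjusted p = 0.0034). H2-K1 was at 343 and 347 CPM in anterior, 425 and 457 CPM in middle and 687 and 620 CPM in posterior libraries (-0.64 ± 0.09, adjusted p = 0.0021). H2-D1 (-0.77 ± 0.10) and H2-T23 (-1.11 ± 0.15) were called without each library as well. Class I heavy chains are close relatives, and reads shared between them may be lost or misplaced.

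Of 33 tested interferon response genes 8 were lower, 0 were higher and 25 did not pass, with a median of -0.93. Without anterior replicate 2 the test called 1 of them. Iigp1, an interferon-induced GTPase, was at 0.0606 and 0 CPM in anterior, 1.47 and 10.5 CPM in middle and 85.8 and 49.6 CPM in posterior libraries (-9.04 ± 2.08, adjusted p = 0.028). Here the posterior libraries were the highest, unlike the defence genes above, and the call was lost without either anterior library (adjusted p = 0.098 and 0.29) and without middle replicate 2 (adjusted p = 0.052).

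Of 29 tested crypt base stem cell genes 3 were higher, 5 were lower and 21 did not pass, with a median of 0.03. Without anterior replicate 2 the test called 0 higher and 2 lower, and with the length and GC offsets described below 0 and 4. The higher genes were Ephb2, Rnf43 and Sox9, and all 3 lost their calls without that library (adjusted p = 0.28, 0.59 and 0.51). Ascl2, the transcription factor that keeps crypt base stem cells, was at 201 and 231 CPM in anterior and 220 to 230 CPM in distal libraries (-0.07 ± 0.15, adjusted p = 0.84). Phlda1, a protein of growing crypt cells, was lower in anterior cells without each library left out, at 82.4 and 73.5 CPM against 130 to 162 CPM in distal libraries (-0.90 ± 0.12, adjusted p = 0.0016). Of 30 tested cell cycle genes 0 were higher, 1 was lower and 29 did not pass (median -0.08). No tested member of the goblet cell list (17), the tuft cell list (15) or the enteroendocrine list (25) passed with all libraries. The enteroendocrine median was 1.66. The 11 tested T cell genes were all above 0, with a median of 3.32, and 0 passed. Without anterior replicate 2 the test called 2 T cell genes and 1 enteroendocrine gene higher.

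The libraries labelled middle and posterior did not form a simple gradient. Of the 440 genes lower in anterior cells, 278 were highest in the middle libraries and 162 in the posterior ones. Of the 762 higher genes, 342 were lowest in the middle libraries and 417 in the posterior ones. Direct comparison of posterior with middle wild-type libraries called 202 genes (1.5%), 90 higher (0.67%) and 112 lower (0.834%) in posterior, and 54 to 83 genes when any 1 of these 4 libraries was left out. Some genes best known from the ileum, the most distal part, were highest in the middle libraries. Fabp6, the ileal bile acid-binding protein, was at 628 and 239 CPM in middle, 0.297 and 0.478 CPM in posterior and 0.424 and 0.378 CPM in anterior libraries. Its posterior over middle change was -10.09 ± 1.39 (adjusted p = 0.015), with an adjusted p of 0.14 when either posterior library was left out. The hormone gene Fgf15, which ileal cells express in response to bile acids, was at 13.5 and 16.1 CPM in middle libraries. It was at 0 in the 2 posterior and the 2 anterior libraries. Over the 4 distal libraries together it was at least 41.9-fold above anterior, against a floor of 3 counts per library. That excess came from the middle libraries alone. The Hox gene Hoxb9 was at 19.3 and 10.1 CPM in middle and at 0 in the other 4. The direct calls of Fgf15 and Hoxb9 (adjusted p = 0.043 and 0.022) were both lost without any 1 of the 4 libraries (adjusted p = 0.15 to 0.18 and 0.079 to 0.15).

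Neither Fabp6 nor Fgf15 passed in the anterior against distal contrast (adjusted p = 0.13 and 1). Of 11 tested bile acid handling genes in that contrast 1 was higher, 1 was lower and 9 did not pass. The lower one was Nr1h4, the bile acid receptor FXR, at 28.3 and 34.0 CPM in anterior, 109 and 83.7 CPM in middle and 39.2 and 38.8 CPM in posterior libraries (-0.98 ± 0.20, adjusted p = 0.011, and 0.07 without anterior replicate 2). Calls that held without any of the 4 libraries between posterior and middle included Gata4 (2.71 ± 0.36, adjusted p = 0.0027) and Gkn3 (3.24 ± 0.26, adjusted p = 7.7e-05). Both were higher in posterior. Bex1 (-3.61 ± 0.28, adjusted p = 7.7e-05), Cd177 (-3.45 ± 0.36, adjusted p = 0.00046) and Ceacam10 (-1.97 ± 0.16, adjusted p = 7.7e-05) were lower in posterior, with the same stability.

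The same genes were ordered the other way in the Id2KO libraries. Of the 202 genes, 174 (86.1%) had the opposite sign in the Id2KO posterior against middle comparison and 27 had the same sign, while 50.8% of all tested genes had opposite signs. That comparison called 69 genes (0.514%). A set of 37 genes was called in both, 18.3% of the wild-type and 53.6% of the Id2KO calls, and 34 of them had opposite signs. Bex1 was at 3.07 and 2.74 CPM in Id2KO middle and 52.5 and 51.6 CPM in Id2KO posterior libraries (4.16 ± 0.30, adjusted p = 5.7e-05). Gata4 was at 166 and 128 CPM in Id2KO middle and 36.9 and 36.1 CPM in Id2KO posterior libraries (-2.01 ± 0.34, adjusted p = 0.026). Fabp6 was at 0.647 and 0.155 CPM in Id2KO middle and 22.6 and 3.82 CPM in Id2KO posterior libraries. Whether the middle and posterior labels were exchanged in one genotype or the segments differed cannot be told apart with these labels. The anterior against distal values above give both distal groups equal weight, so they are the same under either order.

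**Figure D4:**
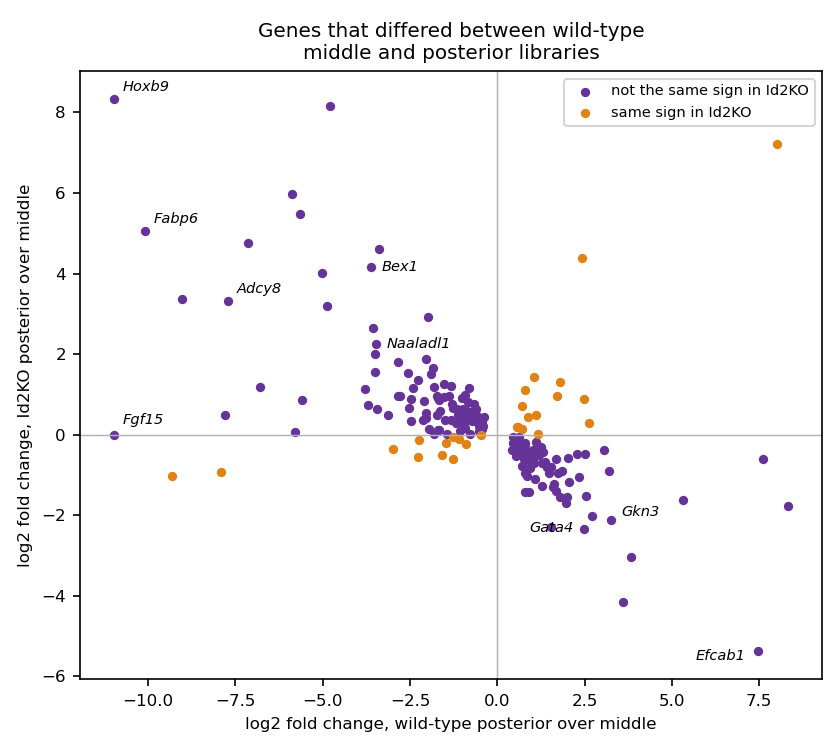
Each point is 1 of the 202 genes called between wild-type posterior and middle libraries, with its log2 fold change in wild type on the x axis and in Id2KO on the y axis, posterior over middle in both. The 174 genes with opposite signs lie in the upper left and lower right parts, among them Bex1, Fabp6, Gata4 and Gkn3.

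Taken apart, the 2 distal segments were each compared with the same 2 anterior libraries, so these values share their controls and are given side by side only. Anterior against middle called 435 genes higher (3.24%) and 403 lower (3%), 6.24% in all, and anterior against posterior called 407 higher (3.03%) and 239 lower (1.78%), 4.81% in all. Against middle, 263 genes were called without anterior replicate 2, 351 without middle replicate 1 and 313 without middle replicate 2. Against posterior, 34 genes were called without anterior replicate 2, 1465 without anterior replicate 1, 159 without posterior replicate 1 and 87 without posterior replicate 2. Nos2, Nox1, Osr2, Bex1 and Ceacam10 had their larger difference against middle, whereas H2-Eb1, B2m and H2-K1 had it against posterior, as the levels above show.

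The same anterior against distal contrast in the 6 Id2KO libraries called 132 genes higher (0.982%) and 127 lower (0.945%), 1.93% of the genes tested, and 100 to 208 genes when any 1 of these 6 libraries was left out. These libraries share none with the wild-type contrast. Both contrasts come from the same fit of 14 libraries and share its estimate of spread, so calls in both are not independent. Of the genes called in wild type, 55.9% of the higher and 79.1% of the lower had the same sign in Id2KO, against 52.2% of all tested genes. Genes called higher in both numbered 54, which is 7.09% of the wild-type and 40.9% of the Id2KO calls. Genes called lower in both numbered 82, which is 18.6% and 64.6%. Of the 109 genes called without each wild-type library, 36 of 42 higher and 65 of 67 lower genes kept their sign in Id2KO, and 22 and 42 were also called there.

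Osr2 was at 16.6 and 8.55 CPM in Id2KO anterior and 139 to 400 CPM in Id2KO distal libraries (-4.23 ± 0.26, adjusted p = 4.6e-06). Nox1 was at 1.74 and 1.05 CPM in Id2KO anterior and 9.22 to 37.9 CPM in Id2KO distal libraries (-3.63 ± 0.43, adjusted p = 0.00098). Cyba (-0.84 ± 0.13), Noxa1 (-1.09 ± 0.16) and Noxo1 (-0.75 ± 0.10) were lower there too, and Cyba and Noxa1 missed the threshold without Id2KO anterior replicate 1 (adjusted p = 0.084 and 0.059). Bex1 had the same anterior against distal change in both, -4.37 ± 0.32 in Id2KO.

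No class II gene passed between the Id2KO segments. H2-Eb1 was at 0.746 and 0.351 CPM in Id2KO anterior and 0.362 to 0.757 CPM in Id2KO distal libraries (0.05 ± 0.45, adjusted p = 1). Of 12 tested class II genes 0 passed, with a median of -0.11, and the summed list was 175 to 249 CPM in these 6 libraries. Tested directly, the difference between the genotypes in the anterior against distal change of H2-Eb1 was 3.19 ± 0.55 and did not pass (adjusted p = 0.078). Over all genes this test of the difference called 2 (0.0149%), Txnip and Ceacam10, and 2136 genes had an unadjusted p under 0.05. Hnf4a was at 328 and 341 CPM in Id2KO anterior and 284 to 392 CPM in Id2KO distal libraries, a change of -0.02 ± 0.12 where wild type had 0.84 (difference -0.86 ± 0.17, adjusted p = 0.078).

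The wild-type calls followed transcript length. Genes were split by the length of their longest annotated transcript into 5 bins of equal size. In the bin of shortest transcripts 19 genes were higher and 139 lower in anterior cells, and in the bin of longest transcripts 210 were higher and 34 lower. Calls also followed GC content, with 40 higher and 138 lower in the lowest bin and 271 and 48 in the highest. In Id2KO the shortest bin had 32 higher and 20 lower and the longest 11 and 23. Anterior replicate 2 was the library that departed most by length. Its median deviation from the mean of all 14 libraries was -0.31 on the log2 scale for the shortest transcripts and 0.23 for the longest. Anterior replicate 1 stood at 0.04 and 0.02. By GC content the departure was not confined to that library. In the highest GC bin the deviations were 0.09 and 0.13 in anterior replicates 1 and 2. They were 0.01 and -0.06 in middle and -0.11 and -0.15 in posterior wild-type libraries. With these trends removed by offsets, an alternative chosen after the data were seen, 358 genes were called higher and 245 lower, among them 282 of the 762 higher and 199 of the 440 lower genes. Of the 109 genes, 41 of 42 higher and 64 of 67 lower genes were still called, and the 7 class II genes that were lower were all still called. Among the 109, the shortest bin held 6 higher and 16 lower and the longest 7 and 7. The part of library quality in the 1202 calls was not tested beyond this.

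**Figure D5:**
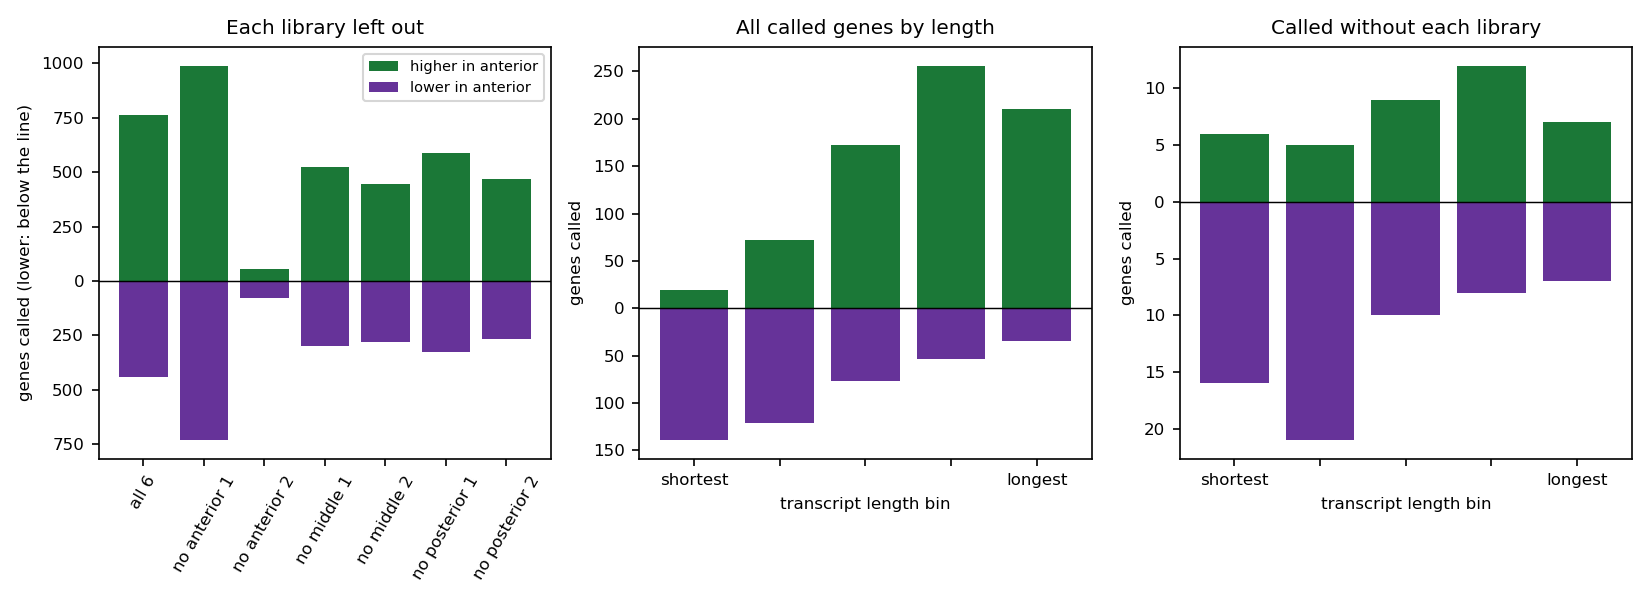
Bars count genes higher (green, above the line) and lower (purple, below the line) in anterior wild-type cells. The left panel leaves out each library in turn, from 762 higher and 440 lower with all 6 to 55 and 80 without anterior replicate 2, the middle panel splits those of the 1202 genes with a matched transcript into 5 bins of its length, and the right panel does the same for the 109 genes called without each library.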

How the data were processed

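Lgr5-EGFPhigh cells were sorted, and poly(A) RNA of 250 cells was amplified (SMARTer v3, 15 cycles), made into NuGEN Ovation libraries and sequenced single-end, per the labels' protocols. The deposited files hold whole-number read counts for 23366 genes and 5 category rows (reads in no gene, not unique and the like), which were removed. In the wild-type libraries they came to 7.48 to 9.35% (no gene) and 12.0 to 15.4% (not unique) of all counts, category rows included. The submitters' processing notes name bcl2fastq 1.8.4, STAR 2.3.1z13, SAMtools 1.2, HTSeq 0.6.1p1, DESeq2 1.6.3 and mm9, with no roles; the annotation and strand setting are not given in the sources used here.

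Counts of 14 adult segment libraries were fitted together in R 4.3.3 with edgeR 4.0.16 (TMM scaling, its filter on low counts, robust quasi-likelihood test, 7 group means), leaving 13436 genes, with Benjamini-Hochberg adjustment over all of them and a threshold of 0.05. Distal is the mean of the middle and posterior groups. Alternatives were RLE scaling, DESeq2 1.42.0, no filter, a replicate block, fewer groups, the 4 distal libraries as 1 group, each library left out, and, added after the data were seen, length and GC offsets from the longest GENCODE vM21 transcript (93.9% of tested genes matched). Replicates differed beyond counting noise (chi-square per degree of freedom 22.9 to 42.0), and none were identical.

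Genes were named by rule: Id2, Lgr5, 4 given markers, the 12 largest rises and falls with no overlap between the sides and at least 5 CPM in 1 side, up to 4 called members of each of 40 gene lists by smallest p, and the 6 largest in each direction for the posterior against middle and genotype comparisons. Other named genes come from the 109 called without each library or were chosen after their values were seen, as were the NADPH oxidase and BEX/TCEAL groups. The members and lists were chosen with earlier results of these data known. Intervals and floors (3 counts per library) cover counting error only. Promoters are from RefSeq. Not every gene that the rule names is printed, and some are not reported here.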

Additional observations from a re-analysis of the deposited data

Results flagged for a closer look

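A pair of genes differed between the genotype labels in their anterior against distal change, each by the test of that difference over all 13436 genes. Txnip, an inhibitor of thioredoxin that responds to glucose, was at 421 and 451 CPM in wild-type anterior, 462 and 480 CPM in middle and 574 and 578 CPM in posterior libraries. In Id2KO it was at 992 and 1090 CPM in anterior, 619 and 654 CPM in middle and 463 and 465 CPM in posterior libraries. Its anterior over distal change was -0.26 in wild type and 0.94 in Id2KO, a difference of 1.2 ± 0.1 (adjusted p = 0.00058), and it passed without each of the 12 libraries (adjusted p = 0.0014 to 0.0061).

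Ceacam10 was lower in anterior cells of both genotypes, by -5.46 in wild type and -3.77 in Id2KO, a difference of 1.69 ± 0.23 (adjusted p = 0.042). That call was lost in 6 of 12 fits that each left out 1 library (adjusted p = 0.015 to 0.16 over the 12). It was also lost with the replicate block (adjusted p = 0.07), without the Tomato+ libraries (0.072) and with the length and GC offsets (0.11), under which Txnip still passed (adjusted p = 0.0038, 0.0013 and 0.0031).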

How the results depend on the processing

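The genes called in wild-type anterior against distal cells (762 higher and 440 lower) came to 694 and 478 with RLE scaling, 678 and 440 with the replicate block, 1080 and 902 with DESeq2, 1346 and 770 with no filter on low counts, 289 and 200 with the wild-type libraries alone, 23 and 26 with the 4 distal libraries as 1 group, 358 and 245 with length and GC offsets, and 55 to 988 and 80 to 730 with 1 library left out. For anterior against middle (838) these were 1537 with DESeq2, 1657 with no filter, 430 with the genotype alone and 263 to 1150 with 1 library left out. For anterior against posterior (646) they were 1549, 1654, 113, 172 with the offsets, and 34 to 1465. For posterior against middle (202) they were 573, 780, 112 and 54 to 83. For Id2KO anterior against distal (259) they were 553, 654, 164, 18 with the distal libraries as 1 group, and 100 to 208. The genotype difference (2) gave 5 genes with RLE scaling, 562 with DESeq2, 845 with no filter and 1 to 338 with 1 library left out. The fits of 1 genotype alone and with the distal libraries as 1 group used fewer libraries than the 14, and the cause of these shifts was not tested.

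With the replicate block, the other counts were 793, 578, 185, 249 and 2; the genotype difference of Ceacam10 lost its call there (adjusted p = 0.07) and that of Txnip did not (adjusted p = 0.0038). Replicate numbers come from titles, and same-numbered wild-type libraries did not deviate together (r from -0.02 to 0.02), so the block pairs them by number only.

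Of 1352 values (104 named genes under 13 alternatives), 1004 kept their direction and side of the threshold, 340 kept their direction and lost the call, 5 gained it and 3 changed sign. The sign changes were Id2, from -0.19 to 0.09 without anterior replicate 2 and to 0.08 with the offsets, and Lgr5, from 0.10 to -0.34 without anterior replicate 2. Over the 6 libraries left out Id2 ranged from -0.59 to 0.09 and Lgr5 from -0.34 to 0.40. Id2 passed only without anterior replicate 1, and Lgr5 under none of the 13. Limits: with 2 libraries a group, genes of a few CPM pass or fail on single reads, and 250-cell libraries hold few rare cells, so absent calls do not show equal levels.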

Other observations

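Further genes of the 109 that were called without each wild-type library follow, chosen after their values were seen. Cbs, which starts the conversion of homocysteine to cysteine, was lower in anterior cells by -1.70 (adjusted p = 0.0067), and Suox, the mitochondrial sulfite oxidase, by -1.45 (adjusted p = 0.00055). Sord, sorbitol dehydrogenase, was lower by -0.88 (adjusted p = 0.00032). All 3 were also lower in Id2KO anterior cells, at -1.55, -0.81 and -0.94. None of the 3 was called with the 4 wild-type distal libraries fitted as 1 group. Suox was at 26.7 and 29.6 CPM in wild-type anterior, 204 and 166 CPM in middle and 29.7 and 34.4 CPM in posterior libraries. Its difference thus lay mostly against middle. Sord was at 143 and 152 CPM in anterior, 370 and 385 CPM in middle and 185 and 208 CPM in posterior libraries.

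Also lower were Tifa, an adaptor of the response to bacterial sugars (-0.82, adjusted p = 0.0021, and -0.86 in Id2KO), and Litaf (-0.85, adjusted p = 0.002, and -0.74 in Id2KO). On the higher side, Cluh, which binds messenger RNAs of mitochondrial proteins (1.56, adjusted p = 0.00036), Aldh18a1, of proline synthesis (0.73, adjusted p = 0.002), and Adck3, of coenzyme Q synthesis (0.93, adjusted p = 0.00062), were called. Eif4g1, a scaffold of translation initiation, was higher by 0.83 in wild type (adjusted p = 0.00013) and at 0.06 in Id2KO (adjusted p = 0.90).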
